A study of Mus musculus with 4 samples.

Results

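The BTG/TOB and Zfp36 genes encode proteins that shorten the life of messenger RNAs and that are best known as brakes on proliferation and inflammation. The 8 genes described here were fixed by name, with earlier results of these data known: Zfp36, Zfp36l1, Zfp36l2, Btg1, Btg2, Btg3, Tob1 and Tob2. Their expression was measured on 4 Affymetrix arrays in mouse haematopoietic stem cells (HSC), which were flow sorted as KLS cells negative for CD48 and positive for CD150. A gene was measured when at least 1 probe set of the array was annotated to it alone, which held for 7 of the 8 genes, out of 18193 genes in all. Btg3 had only 1 probe set, annotated also to a second gene, and has no value here. The 7 measured genes had 18 such probe sets, and each gene is represented by the one with the highest mean signal, with the others given beside it.

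The Rb family deficient cells are labelled Rb -/- p130 -/- p107-/- and those called wild type are labelled Rb +/+ p130 +/+ p107-/-. Both groups were thus labelled as lacking p107 (Rbl1), and they differ by label in Rb1 and p130 (Rbl2). Per the labels, tamoxifen given to adult mice started recombination and the cells were taken 2 weeks later. Each group had 2 pools, and each pool came from 3 mice. The sources used here name no Cre driver, strain or exact age, and they do not say whether any mouse contributed to both pools of a group.

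ZFP36 (tristetraprolin, TTP), ZFP36L1 and ZFP36L2 bind AU-rich elements in the tails of mRNAs through a pair of CCCH zinc fingers and recruit the CCR4-NOT deadenylase, which removes the poly(A) tail and so starts decay. BTG and TOB proteins share an amino-terminal domain that binds the CNOT7 and CNOT8 catalytic subunits of the same complex, and TOB proteins also bind the cytoplasmic poly(A)-binding protein. Zfp36 and Btg2 are early response genes, Btg2 is also a p53 target, and Zfp36l2 is known to be needed for definitive haematopoiesis in the mouse.

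Values are log2 expression after RMA, a normalization that gives all arrays nearly the same distribution, so that a shift of all transcripts together would be hidden. Array medians lay between 5.94 and 6.02. Among the targeted genes, deficient pools 1 and 2 had Rbl2 at 7.82 and 8.21, where wild type pools 1 and 2 had 8.94 and 8.75. In the same order Rbl1 stood at 5.35 and 5.42 against 5.92 and 6.77, and Rb1 at 9.82 and 9.72 against 9.37 and 9.58. The dimmer Rbl1 probe sets showed no such gap, with log2 differences (deficient minus wild type) of -0.000873, 0.028 and 0.032. A dimmer Rbl2 probe set differed by -0.33 and a dimmer Rb1 probe set by 0.46. Whether these probe sets lie inside the deleted parts is unknown here, so they do not check the labels. The stem cell markers Procr and Mecom stood above 10 on every array, at 10.05 and 10.03 against 10.74 and 11.03 for Procr and 10.90 and 11.13 against 11.80 and 11.62 for Mecom, the 2 of 11 measured HSC markers with the lowest p. Of those 11, 3 had a log2 difference above 0 and 8 below, where 49.2% of all genes were above 0. Both deficient pools lay below both wild type pools for 5 (18.5% of all genes) and above them for 1 (17.0% of all genes). RNA quality was read from Actb, whose 3' control probe set exceeded its 5' one by 3.13 and 2.95 in deficient and by 2.32 and 2.81 in wild type cells, and from Gapdh, where the excess was 2.79 and 2.499 against 2.40 and 2.58 and the groups overlapped. Fewer cells of a type and less RNA per cell cannot be told apart in these pooled samples.

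Zfp36 had the largest difference of the 7 genes. Deficient pools 1 and 2 stood at 9.77 and 10.49, wild type pools 1 and 2 at 8.89 and 9.33, and pools are given in this order throughout. Both deficient pools lay above both wild type pools, with 0.44 between the nearest pools of the 2 groups, while the deficient pools lay 0.71 apart and the wild type pools 0.44 apart. The log2 difference was 1.02, or 2.03-fold (SE 0.29, n = 2 pools per group), and did not pass limma's threshold (adjusted p = 0.761). Without deficient pool 2 it was 0.66 and without deficient pool 1 it was 1.38. Only 1 probe set was annotated to Zfp36 alone.

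Zfp36l1, the second gene of the family, separated the groups with the least spread within them. Its values were 10.71 and 10.59 (deficient) against 10.14 and 10.05 (wild type). The groups did not overlap, and the gap of 0.45 between them was wider than the distance between pools of either group. The log2 difference was 0.55, or 1.47-fold (SE 0.15, limma adjusted p = 0.761), and it ran from 0.50 to 0.61 with any 1 pool left out. Its dimmer second probe set had 6.42 and 6.28 against 6.20 and 6.25, which differ by 0.13 (SE 0.15).

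Zfp36l2 lay on the other side of 0. The pools stood at 12.30 and 12.45 when deficient and at 12.65 and 12.43 when wild type, so the groups overlapped. Its log2 difference of -0.16 (SE 0.16) had a 95% interval from -0.57 to 0.25, which overlaps that of Zfp36l1 (0.18 to 0.92). The other 2 probe sets differed by 0.07 and 0.12, and the mean of all 3 by 0.011. A test of the difference between family members was not run.

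Btg2, the p53-responsive BTG gene, stood at 7.88 and 8.03 (deficient) against 7.14 and 7.56 (wild type). The groups did not overlap, but the wild type pools lay 0.42 apart, wider than the 0.31 that separated the groups. The log2 difference was 0.60, or 1.52-fold (SE 0.20, limma adjusted p = 0.761), and 0.39 without wild type pool 1. A second, dimmer Btg2 probe set was also higher in both deficient pools, at 6.43 and 6.73 against 6.25 and 5.99 (difference 0.46, SE 0.19).

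**Figure D1:**
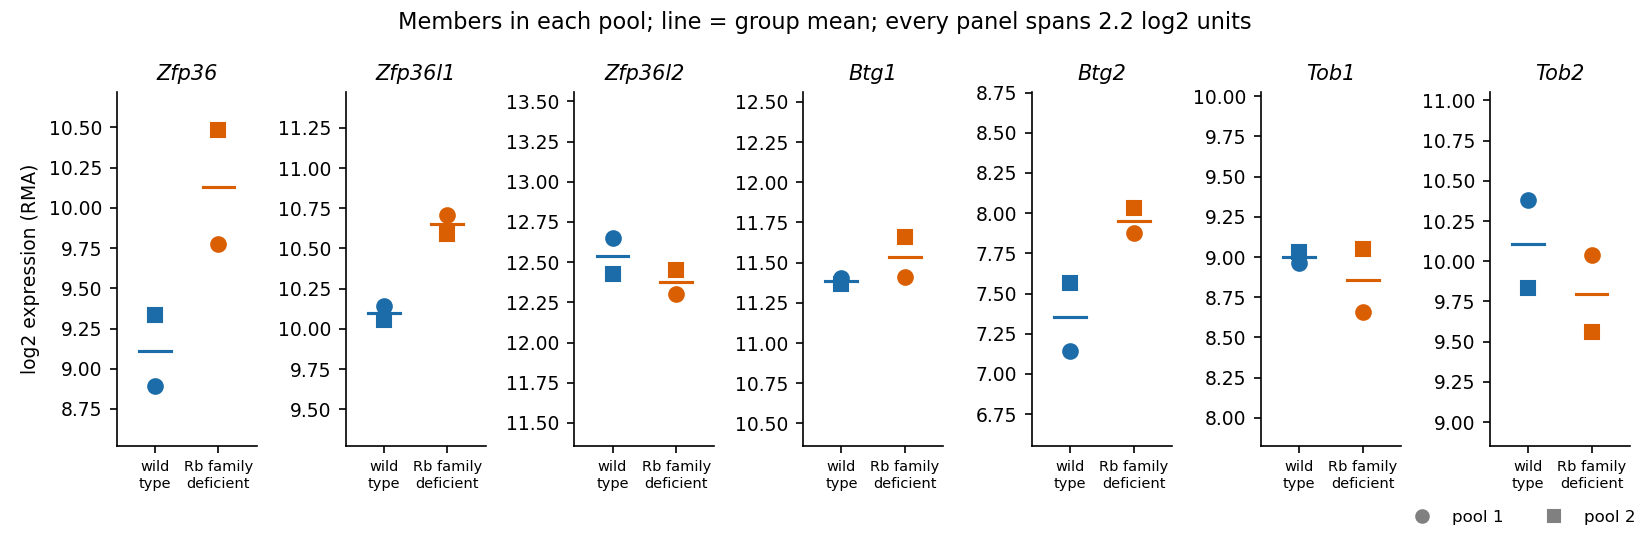
Log2 expression of the 7 measured genes in each pool, with circles for pool 1, squares for pool 2, a line for the group mean and a panel of the same height for every gene. Zfp36, Zfp36l1 and Btg2 show both deficient pools (orange) above both wild type pools (blue), with differences of 1.02, 0.55 and 0.60, while Zfp36l2, Tob1 and Tob2 overlap.

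Windows around the start of these 3 genes are shown because they are the members whose pools separated at an unadjusted p under 0.05. The sequences are from RefSeq (GRCm38.p6), 5' to 3' on the gene's own strand, which is the minus strand for all 3. Each holds 300 bases, of which the last 50 lie downstream of the annotated start: chr7:28379179-28379478 for Zfp36, chr12:80112964-80113263 for Zfp36l1 and chr1:134079106-134079405 for Btg2. Capitals mark matches to the motifs searched.
Zfp36: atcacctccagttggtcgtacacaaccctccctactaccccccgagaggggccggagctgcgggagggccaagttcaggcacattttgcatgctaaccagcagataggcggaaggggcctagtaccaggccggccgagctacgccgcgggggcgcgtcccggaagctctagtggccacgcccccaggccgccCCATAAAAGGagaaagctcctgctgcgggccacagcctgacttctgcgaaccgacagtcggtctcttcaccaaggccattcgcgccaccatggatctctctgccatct
Zfp36l1: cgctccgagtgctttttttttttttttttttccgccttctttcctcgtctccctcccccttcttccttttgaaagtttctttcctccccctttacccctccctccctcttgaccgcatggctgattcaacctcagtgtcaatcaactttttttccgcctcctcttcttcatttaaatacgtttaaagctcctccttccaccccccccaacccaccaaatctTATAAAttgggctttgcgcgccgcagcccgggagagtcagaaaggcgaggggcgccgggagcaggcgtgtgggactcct
Btg2: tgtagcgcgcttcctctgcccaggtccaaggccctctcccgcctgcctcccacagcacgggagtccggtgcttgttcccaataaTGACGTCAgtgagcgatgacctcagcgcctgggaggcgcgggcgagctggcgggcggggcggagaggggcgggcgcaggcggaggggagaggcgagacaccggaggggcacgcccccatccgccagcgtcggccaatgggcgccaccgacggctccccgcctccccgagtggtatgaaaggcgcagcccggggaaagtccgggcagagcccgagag

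The capitals in Zfp36 are a CArG box, the serum response element core, whose first base lies 58 bases before the start, those in Zfp36l1 a TATAAA 29 bases before the start, and those in Btg2 the cyclic AMP response element TGACGTCA 166 bases before the start. On either strand, a CArG box was found in 1.63% of 32851 promoter windows, TGACGTCA in 1.79% and TATAAA in 13.6%. Of the other members with a window, Btg1 held TATAAA and the shorter TGACGT (7.51% of windows, counting those inside TGACGTCA) and Tob1 held TATAAA. No member window held the AP-1 motif TGACTCA, the E2F motifs TTTCGCGC, TTTGGCGC or TTTCCCGC, the NF-kB motifs GGGACTTTC or GGGGATTTC, or the Egr motif GCGTGGGCG. These matches describe letters in a window, and none was tested as a site. A window was matched for 7 of the 8 genes, all but Zfp36l2.

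Btg1, a BTG gene known from lymphocyte quiescence, gave different values by probe set. The brightest probe set stood at 11.41 and 11.66 against 11.41 and 11.37, and the highest wild type pool lay only 0.00708 below the lowest deficient pool. Its log2 difference was 0.15 (SE 0.16), and 0.03 when deficient pool 2 is left out. A second probe set also differed by 0.15 (SE 0.16), with values of 10.53 and 10.72 against 10.38 and 10.57, which overlap. The third and dimmest, hereafter the dim Btg1 probe set, stood at 8.34 and 7.37 (deficient) against 6.14 and 6.75 (wild type), a 2.66-fold difference (log2 1.41, SE 0.38, limma adjusted p = 0.757 over all probe sets), or 0.93 on the log2 scale without deficient pool 1. The deficient pools lay 0.98 apart on that probe set, pool 1 the higher, whereas on the other 2 pool 2 was the higher.

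Tob1 and Tob2, the 2 TOB genes, showed no separation on their brightest probe sets. Tob1, at 8.66 and 9.05 against 8.96 and 9.03, differed by -0.14 (SE 0.18) with a 95% interval from -0.61 to 0.33. The sign turned, to 0.052, without deficient pool 1. Tob2, at 10.04 and 9.56 against 10.38 and 9.83, differed by -0.31 (SE 0.26, interval -0.98 to 0.36), and by -0.036 without wild type pool 1. In each group pool 2 was the lower, by 0.48 among the deficient and 0.55 among the wild type pools. That Tob2 probe set has an _s_at name, given to probe sets that can hybridise to more than 1 transcript. Of its 4 others, the 3 without such a name differed by 0.00817, 0.14 and 0.15, and the _x_at probe set by -0.14.

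**Figure D2:**
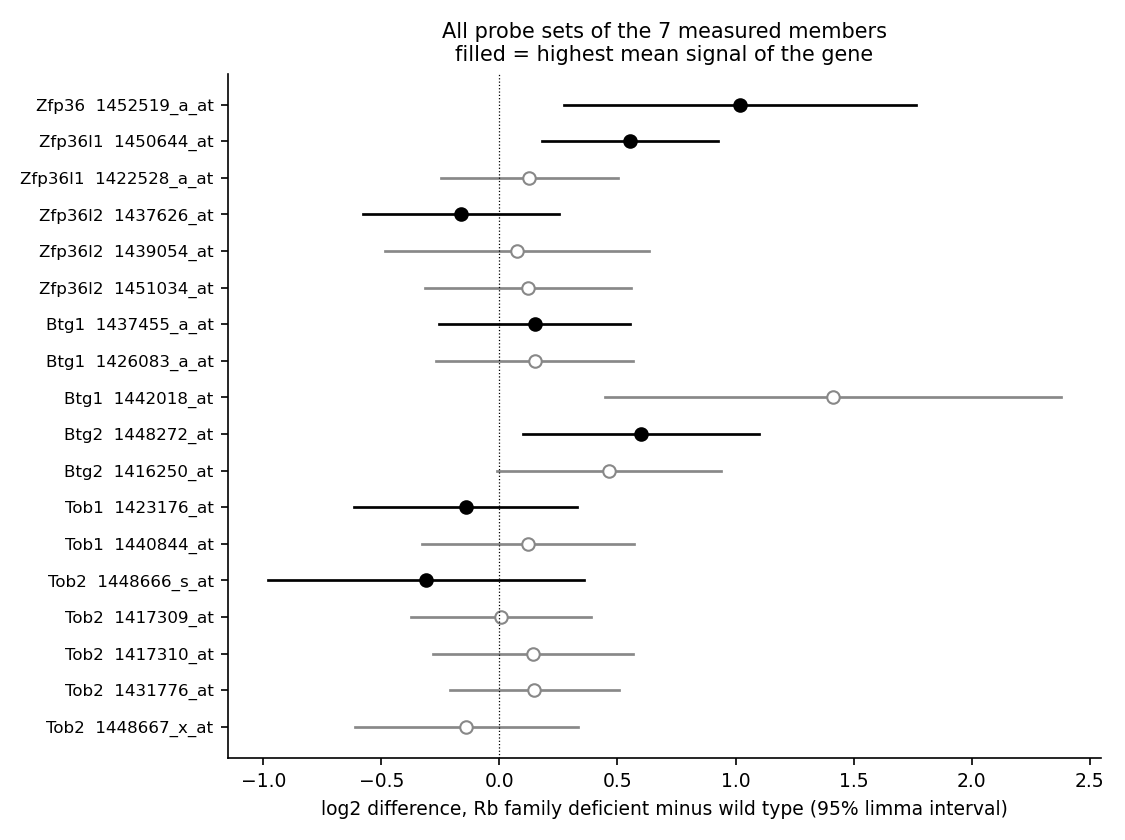
Log2 difference of all 18 probe sets of the 7 genes with the 95% interval of the limma fit over all probe sets; filled points mark the brightest probe set of a gene. The intervals of Zfp36, the brighter Zfp36l1 probe set, the brighter Btg2 probe set and the dim Btg1 probe set lie above 0, and no interval lies below 0.

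By limma, 0 of the 7 genes passed an adjusted p of 0.05, as did 0 of all 18193 genes (0% in each direction), and 3 of the 7 were higher at an unadjusted p under 0.05 against 2.19% of all genes (6.23% in either direction). That count of members was 1 without deficient pool 1, deficient pool 2 or wild type pool 1. None was lower at that level, against 4.04% of all genes. Both deficient pools lay above both wild type pools in 4 of the 7 (3 with median centring), against 17.0% of all genes, and below in 0, against 18.5%. At least 2-fold differences were seen in 1 of 7 genes, against 0.528% of all genes for higher values. Over the 18 probe sets, 8 had both deficient pools above both wild type pools (18.1% of all 34945 probe sets) and 0 had them below (17.4%), 14 were above 0 (50.9%) and 4 were higher at an unadjusted p under 0.05 (2.61%), but probe sets of 1 gene share their transcripts. The median log2 difference of the 7 genes was 0.15, against -0.00376 over all genes, and it ranged from 0.027 to 0.27 when deficient pool 2 or 1 was dropped. Other choices of probe set gave 0.34 and 0.55. An exact permutation test of 2 pools against 2 cannot go below a two-sided p of 0.333. Because the genes were chosen with earlier results of these data known, their counts are a description and not independent support.

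The machinery that these proteins recruit lay near 0 or slightly below. Of 13 measured deadenylase genes, 5 were above 0 and 8 below, with a median of -0.06 (0.13 without deficient pool 1) and 0 at an unadjusted p under 0.05. Cnot7, the catalytic subunit bound by BTG and TOB proteins, stood at 10.75 and 11.05 against 11.30 and 11.10 (difference -0.30, SE 0.18, or -0.15 without deficient pool 1). Cnot11, a subunit of the complex's amino-terminal module, differed by -0.46 (SE 0.19, or -0.28 without deficient pool 2) on its brightest probe set but by 0.42 on a dimmer one, so its direction depended on the probe set. Both deficient pools lay above both wild type pools for 2 deadenylase genes and below them for 3, shares near those of all genes (17.0% and 18.5%).

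Among the poly(A)-binding proteins and their partners, 5 of 6 were below 0, with a median of -0.15 (-0.00555 without deficient pool 1). Pabpc4, an inducible cytoplasmic poly(A)-binding protein, stood at 10.01 and 10.25 (deficient) against 10.73 and 10.64 (wild type). These groups did not overlap, the difference was -0.55 (SE 0.16, limma adjusted p = 0.761), and the second Pabpc4 probe set differed by -0.50 (SE 0.16). Paip2, which competes for the poly(A)-binding protein, differed by -0.18 (SE 0.16, or -0.087 and -0.097 when pool 1 of the deficient or of the wild type group is dropped).

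Decapping and 5' decay genes had a median of -0.08, with 7 of 16 above 0. Lsm2, of the LSM ring that activates decapping, differed by -0.54 (SE 0.21, or -0.29 without wild type pool 1), and the decapping cofactor gene Dcp1b by 0.37 (SE 0.20, or 0.15 without wild type pool 1 and 0.59 without wild type pool 2). Exosome genes, which degrade deadenylated mRNA from the 3' end, had a median of -0.09 (0.06 without wild type pool 2), with 6 of 14 above 0. Skiv2l, the helicase of the SKI complex that feeds the cytoplasmic exosome, was the lowest at -0.63 (SE 0.23, or -0.34 without deficient pool 1). The exonuclease subunit gene Exosc10 differed by -0.37 (SE 0.17, or -0.23 without deficient pool 1). Skiv2l, at 4.78 and 5.35 against 5.76 and 5.63, lay below the array medians (5.94 to 6.02) on every array. Lsm2, at 5.64 and 5.57 against 6.40 and 5.89, lay below them in all pools but wild type pool 1. By limma 0 genes of these lists passed, and 1 in each, Lsm2 and Skiv2l, was lower at an unadjusted p under 0.05. Of all genes, 4.04% were lower at that level and 49.2% were above 0.

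Other proteins that bind AU-rich or further 3' elements were split evenly, 8 above 0 and 8 below, with a median of -0.01 that turned to between 0.00385 and 0.016 without deficient pool 2, wild type pool 1 or wild type pool 2. The Regnase family gene Zc3h12c stood at 6.49 and 6.66 against 6.98 and 7.39 (difference -0.61, SE 0.20, or -0.40 without wild type pool 2), and Rc3h1, which encodes the decay factor Roquin-1, at 10.31 and 10.20 against 10.01 and 9.92 (difference 0.30, SE 0.15). Genes that control TTP by phosphorylation, the p38 and MK2 kinases, phosphatases and 14-3-3 proteins, had 9 of 12 below 0 and a median of -0.10 (from -0.19 to -0.029 with 1 pool left out, by deficient pools 2 and 1). The exception with the largest difference was Dusp1, the phosphatase that switches off p38, at 11.09 and 11.87 against 10.31 and 11.003. Dusp1 differed by 0.83 (SE 0.35, or 0.44 and 0.48 when deficient pool 2 or wild type pool 1 is left out), and the p38 kinase kinase gene Map2k6 by -0.32 (SE 0.14).

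The list of BTG and TOB partners had a median of -0.03 over 10 genes, 4 of them above 0. It also holds cyclin D1, which is there as a repressed gene rather than a partner and is among those below 0. Cyclin D1 (Ccnd1), a proliferation gene repressed by BTG and TOB proteins, stood at 7.01 and 7.59 (deficient) against 9.38 and 8.62 (wild type). Its difference was -1.70, or 3.25-fold lower (SE 0.33, limma adjusted p = 0.761), and both dimmer Ccnd1 probe sets were also lower, by -0.54 and -0.97. The BMP and TGF-beta signalling genes Smad1 (0.44, SE 0.16) and Smad4 (0.39, SE 0.15) were higher on their brightest probe sets, but turned to -0.022 and -0.046 on the brightest ones without an _s_at, _x_at or _a_at name. Their dimmer probe sets without such a name differed by 0.71 (SE 0.15) for Smad1 and by 0.11 (SE 0.16) for Smad4, so the values of both genes depended on the probe set.

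**Figure D3:**
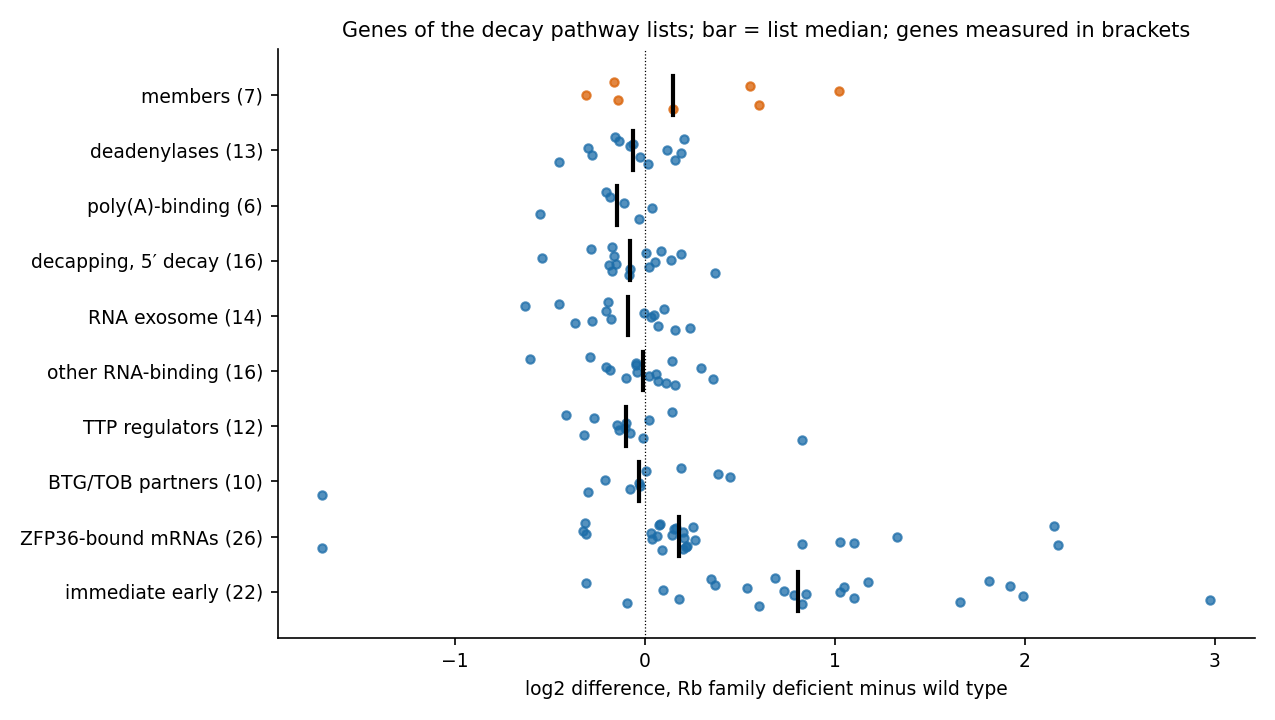
Log2 difference of every measured gene in the lists of the decay pathway, with a bar at each list's median and the number of genes measured in brackets; orange points are the 7 genes described here. Medians of the machinery lists run from -0.15 to -0.01, the ZFP36-bound mRNAs lie at 0.18 and the immediate early genes at 0.81.

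AU-rich mRNAs known to be bound by ZFP36 proteins were above 0 in 22 of 26 cases, against 49.2% of all genes, with a median of 0.18. Some cytokine genes among the 22 lay below the array medians (5.94 to 6.02) on every array. By limma 0 of 26 passed. An unadjusted p under 0.05 was reached by 5 with higher values (2.19% of all genes) and by 1 with lower values (4.04% of all genes). The cyclooxygenase gene Ptgs2 stood at 6.42 and 6.50 against 4.54 and 4.08, 4.45-fold higher (log2 2.15, SE 0.20). Its dimmer probe set differed by 0.52 (SE 0.17). The neutrophil chemokine gene Cxcl2 stood at 6.64 and 7.05 against 4.88 and 4.45, 4.52-fold higher (log2 2.18, SE 0.23). Both wild type values of Ptgs2 and of Cxcl2 lay below the array medians, and signal over background was not measured. Fos, at 13.30 and 13.58 against 12.09 and 12.59, and Ier3, at 11.83 and 11.43 against 10.43 and 10.78, were 2.15-fold and 2.03-fold higher, and Ccnd1 is the member of the list lower by 1.70 given above. Of the 26 mRNAs, 4 are also on the list of immediate early genes described next. The other 22, which still include Ptgs2 and Cxcl2, had a median of 0.16, with 19 above 0. Whether further genes among these 22 respond early was not examined.

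The listed immediate early genes, without Zfp36 and Btg2, were above 0 in 20 of 22 cases, against 49.2% of all genes, with a median of 0.81. Both deficient pools lay above both wild type pools in 16, against 17.0% of all genes. The zinc finger factor gene Egr2 stood at 6.09 and 7.82 against 3.94 and 4.01 (difference 2.98, SE 0.55) and the AP-1 gene Jund at 10.50 and 11.01 against 9.72 and 9.70 (1.05, SE 0.21). Relative to each gene's mean over the 4 arrays, the median of this list was 0.53 in deficient pool 2, 0.20 in deficient pool 1, -0.29 in wild type pool 2 and -0.60 in wild type pool 1. Zfp36 and the brighter Btg2 probe set ranked the 4 pools in this same order (the dimmer Btg2 probe set had wild type pool 1 above pool 2), and Zfp36l1 in another, with pool 1 the higher in both groups. Whether these early genes and the 2 members share a source was not tested.

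p53 targets other than Btg2 had a median of -0.16 (-0.097 without deficient pool 1), with 4 of 17 above 0 (49.2% of all genes). That count rests on brightest probe sets, and some of these genes changed sign on a dimmer one while others did not. Mdm2 differed by -0.23 (SE 0.15) on its brightest probe set but by 0.53 (SE 0.18) on a dimmer one. The cell cycle inhibitor gene Cdkn1a stood apart at 9.27 and 9.96 against 8.48 and 8.40 (difference 1.17, SE 0.25), with a second probe set at 1.499, while Sesn1, a stress-inducible metabolic regulator, stood at 11.36 and 11.56 against 11.81 and 11.81 (-0.35, SE 0.15). Cell cycle genes had a median of 0.20, with 18 of 21 above 0 (49.2% of all genes), and of -0.10 without wild type pool 2. Cyclin A2 (Ccna2) differed by 0.69 (SE 0.14) and the origin recognition gene Orc1 by 0.67 (SE 0.15), with dimmer probe sets at 0.22 and 0.21.

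Mature neutrophils should lie outside the gate, and their markers were compared too. Of 14 markers 12 were measured and 10 were above 0, against 49.2% of all genes, with a median of 0.78. By limma 0 passed the adjusted threshold, and 3 were higher at an unadjusted p under 0.05, against 2.19% of all genes. Both deficient pools lay above both wild type pools for 6 of the 12, against 17.0% of all genes, and the groups overlapped for the other 6, among them S100a9, Ltf and Camp. Their mean level was 10.24 and 9.52 in deficient pools 1 and 2 and 8.85 and 9.36 in wild type pools 1 and 2. The granule protease genes Mmp8 (9.36 and 7.49 against 5.996 and 6.37) and Mmp9 (9.70 and 8.11 against 7.18 and 7.496) and the siderophore-binding Lcn2 (12.49 and 11.26 against 10.26 and 10.88) had the lowest p. Without deficient pool 1 their differences were 1.31, 0.76 and 0.69, and the list's median was 0.48, and without wild type pool 1 the median was 0.32. Deficient pool 1 was the highest for these markers and for Zfp36l1, whereas Zfp36 and Btg2 were highest in deficient pool 2. The part of such cells in the values of Zfp36, Zfp36l1 and Btg2 was not tested. The medians of the other marker lists were 0.12 for monocytes and macrophages, 0.27 for B cells, 0.04 for T and NK cells, 0.06 for erythroid cells, -0.04 for megakaryocytes and -0.24 for HSC. With 1 pool left out they ran from 0.029 to 0.25 for monocytes and macrophages, -0.079 to 0.503 for B cells, -0.021 to 0.198 for T and NK cells, -0.64 to 1.41 for erythroid cells, -0.13 to 0.14 for megakaryocytes and -0.41 to -0.070 for HSC. The B cell, T and NK and erythroid medians were below 0 without wild type pool 1, and the megakaryocyte median was highest without deficient pool 1.

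**Figure D4:**
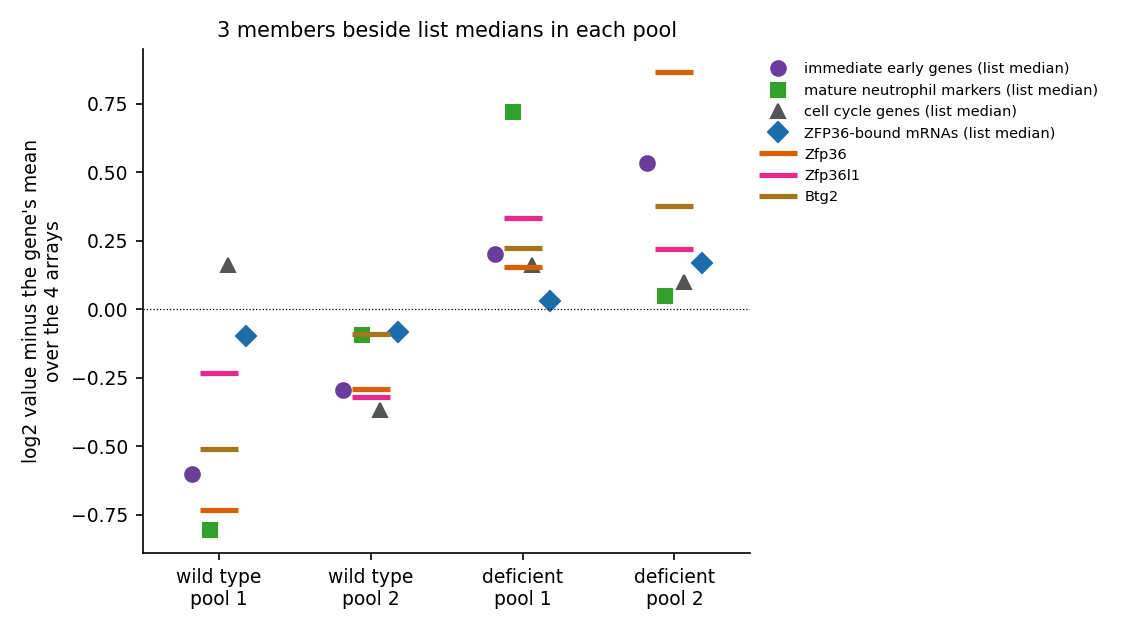
Level in each pool minus the mean over the 4 arrays, in log2 units, for Zfp36, Zfp36l1 and Btg2 (dashes) and for the median of 4 gene lists (symbols). Zfp36, Btg2 and the immediate early genes are lowest in wild type pool 1 and highest in deficient pool 2, while the neutrophil markers are highest in deficient pool 1.

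Genes whose levels over the 4 arrays lay closest to those of Zfp36l1 and Btg2, the members with the lowest p in each family, were found by the distance between mean-centred log2 values. Symbols of predicted genes, RIKEN clones, expressed sequences and the like were left out of this search. Closest to Zfp36l1 was the mitotic gene Cdca8 (distance 0.03, at 12.58 and 12.49 against 12.02 and 11.97), followed by Snx24, Ncam1 and Pskh1 at distances of 0.05 to 0.06. Closest to Btg2 were Cd33 (0.05, at 6.16 and 6.36 against 5.46 and 5.83), Dhrs7 (0.09), Peli2 (0.10) and Ighm (0.12). With only 4 arrays and 18193 measured genes to start from, such closeness is a description of these arrays.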

How the data were processed

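The 4 arrays gave log2 expression values per probe set that the authors had made with RMA, per the submitters' processing notes, which also name limma. The sources used here give no version or setting, and the log2 scale was read from the deposited values. Detection calls were not used, so no gene is called present or absent. Array controls (64) were left out. Of 45101 probe sets, 34945 had 1 gene symbol in a 2016 platform annotation, updated by Entrez ID to RefSeq names. Groups came from sample titles. Differences are Rb family deficient minus wild type, from limma 3.58.1 (lmFit, eBayes, R 4.3.3, no block), with Benjamini-Hochberg adjustment over 18193 genes. Other probe sets were fitted over all 34945. SE is the moderated standard error. P-values rest on the spread between these pools, with each gene's variance drawn by eBayes towards that of all genes. The fit was run on simulated data only to check that mean estimates lay near the planted log2 changes. That check set no criterion for p-values or calls.

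The members and lists were chosen with earlier results of these data known. Named genes are the members, the targeted genes, up to 4 genes with the lowest p per pathway list, up to 3 per marker list, and the 4 nearest genes of 2 members. A few others, such as Mdm2, are named to show a limit. Lists were given no test. Alternatives covered probe set choice, median centring, a filter on dim genes, an intensity trend, blocks and single pools left out.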

Additional observations from a re-analysis of the deposited data

How the results depend on the processing

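In all settings tried, 0 genes passed limma's adjusted threshold, and Zfp36, Zfp36l1, Btg1 and Btg2 stayed above 0. With 1 pool left out, Zfp36 ran from 0.66 to 1.38, Zfp36l1 from 0.50 to 0.61, Btg2 from 0.39 to 0.81, Btg1 from 0.027 to 0.27, Zfp36l2 from -0.28 to -0.051, Tob2 from -0.59 to -0.036 and Tob1 from -0.34 to 0.052. The members at an unadjusted p under 0.05 were then 1 to 3, and all genes at that level 244 to 689 higher and 317 to 1082 lower, against 399 and 735 in full. List medians ran from 0.027 to 0.27 for the members, -0.20 to 0.13 for deadenylases, -0.18 to -0.014 for decapping, -0.21 to 0.062 for the exosome and -0.080 to -0.00635 for BTG/TOB partners. Preferring probe sets without an _s_at, _x_at or _a_at name, Btg1 was 1.41, Tob2 0.14, Smad1 -0.022, Smad4 -0.046 and the members' median 0.55. Averaging all probe sets of each gene, Zfp36l2 was 0.011, Cnot11 0.015 and the members' median 0.34. Median centring put the other AU-rich binding proteins at -0.066 and BTG/TOB partners at -0.085. The cause of these shifts was not tested beyond the choice of probe set.

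The pool numbers were not taken as pairs, since the labels do not say that they mark a shared litter, batch or day. Same-numbered pools deviated with a correlation of -0.19 across genes, which from 2 pairs cannot settle a pairing. With the replicate block Zfp36 had an adjusted p of 0.962 and the counts at an unadjusted p under 0.05 were 281 higher and 457 lower. A crossed pairing, chosen after seeing the data, called 0 genes, with 518 higher and 1151 lower at that level. Signal over background was not measured.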
